A study of Mus musculus with 6 samples.

Results

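The 7 podocyte genes Nphs1, Kirrel, Cd2ap, Synpo, Actn4, Podxl and Ptpro were followed in whole mouse kidneys at embryonic day 12.5, a stage at which nephrons are only being laid down. They were read through the probe sets whose single gene symbol in the platform annotation is one of these names, which gave 13 of the 45101 probe sets. Kidneys of C57BL/6 embryos of 2 genotypes were measured, Ret-deficient and wild-type, each with 3 arrays that the labels call biological replicates. The GDNF receptor encoded by Ret is what makes the ureteric bud grow out and branch. The labels give neither the Ret allele, nor the number of embryos behind a sample, nor the litters, and the source field names the genotype of the pregnant female where the titles name that of the kidney. The titles were followed here.

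Podocytes are the epithelial cells that wrap the capillaries of the glomerulus. They arise from the mesenchyme that the ureteric bud induces to form nephrons, and they send out interlocking foot processes joined by the slit diaphragm, the last barrier of the kidney filter. Nephrin (Nphs1) and Neph1 (Kirrel) are the adhesion molecules of the slit. Cd2ap ties nephrin to the cytoskeleton, synaptopodin (Synpo) and alpha-actinin-4 (Actn4) organise the actin of the foot process, and podocalyxin (Podxl) and the receptor phosphatase GLEPP1 (Ptpro) sit on the apical surface. Of these genes Nphs1 is the most restricted to the podocyte, while Actn4, Cd2ap and Kirrel are active in many cell types, Podxl also in endothelium and mesothelium, and Ptpro and Synpo also in neurons.

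Values are linear MAS5 signals, the summary that Affymetrix software makes of a probe set, and the deposited values have the same trimmed mean on every array. The brightest of 27 control probe sets for Bacillus subtilis genes served as the gauge of background on each array. It read 128.2, 116.8 and 133.4 on Ret-deficient arrays 1, 2 and 3, and 186.9, 114.7 and 97.2 on wild-type arrays 1, 2 and 3. Ret itself, at probe set 1436359_at, read 93.3, 479.8 and 334.1 in Ret-deficient kidneys, against 13315, 11042 and 10193 in wild-type kidneys, so the groups lay far apart in the direction of the labels (limma adjusted p = 0.51 over all tested probe sets). A pair of arrays stood apart. In Ret-deficient replicate 1 the summed signal of 10 ureteric epithelium markers was 6618, against 55520 and 45704 in the other Ret-deficient replicates and 58704 to 71856 in wild-type kidneys. Calb1, Cdh1 and Cldn3 were below the gauge on that array alone, and Calb1 read 128.1 there, against 13353 to 29916 elsewhere. Yet Krt18, Gata3, Krt8, Tfap2b and Epcam read 711.3 to 2140 there, and Tfap2b was no lower than in the other Ret-deficient replicates. In wild-type replicate 1 the ratio of 3 prime to 5 prime signal for beta-actin was 10.69, against 3.88 to 5.21 on the other 5 arrays, and 6 markers of coelomic epithelium and gonad summed to 4628, against 1022 to 1854 on the others. The small number of arrays limits every value, and with 3 against 3 the smallest p of an exact permutation test is 0.1.

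Before glomeruli form, 5 of the 7 genes were above background on every array and the only Nphs1 probe set was above it on none. Kirrel, Cd2ap, Synpo, Actn4 and Podxl each had a probe set above the gauge on all 6 arrays. Ptpro crossed the gauge on some arrays, and Nphs1 on no array. Counted by probe set, 7 of the 13 were above the gauge on all 6 arrays, 1 on some and 5 on none. Over all probe sets without controls, 51.3% were above the gauge on every array and 22.7% on none, so 7 of 13 is near the share of the whole array. The count by gene takes a gene as above where any of its probe sets was, and the same share over all genes is not given here. Levels of different probe sets were not set against each other, because each has its own probes and affinity.

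**Figure D1:**
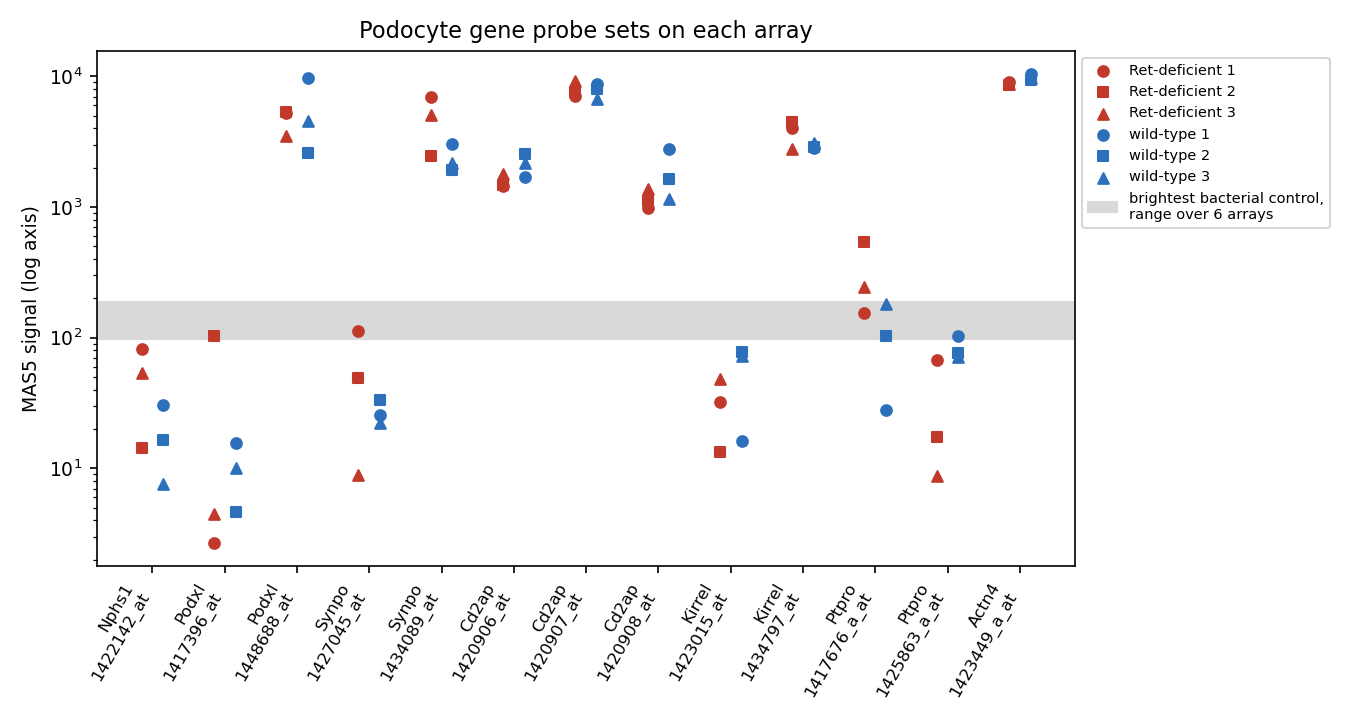
Signal of the 13 podocyte gene probe sets on each array, on a log axis of MAS5 signal, with Ret-deficient arrays in red to the left of wild-type arrays in blue. The grey band spans the brightest bacterial control over the 6 arrays, from 97.2 to 186.9. Nphs1 and the dim probe sets of Podxl, Synpo, Kirrel and Ptpro lie below the control of their own array, and 1417676_a_at of Ptpro straddles the band.

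Nphs1, which encodes nephrin, has 1 probe set on the array, 1422142_at. It read 81.8, 14.3 and 53.4 in Ret-deficient kidneys, against 30.6, 16.6 and 7.6 in wild-type kidneys. All 6 values lay below the control of their own array, and the groups overlapped. A signal below the gauge does not show that the transcript was absent, nor does it bound its level. Probe sets 1417396_at of Podxl, 1427045_at of Synpo and 1423015_at of Kirrel were also below it on all arrays. Yet each of these genes had another probe set above it on all 6 arrays. Nphs1 has no second probe set to read beside this one.

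Ptpro was the gene nearest to the gauge. Its probe set 1417676_a_at read 154.8, 537.3 and 243.0 in Ret-deficient kidneys, all above their controls of 128.2, 116.8 and 133.4. In wild-type kidneys it read 28.1, 102.6 and 180.6, of which the last alone was above its control, at 97.2. The groups overlapped through Ret-deficient replicate 1 and wild-type replicate 3. This probe set was below the brightness filter of the main test, which kept probe sets at or above the median. In the limma fit without that filter the log2 difference, Ret-deficient minus wild-type, was 1.52 (SE 0.68) with an unadjusted p of 0.0639 and a limma adjusted p of 0.97, in a fit in which 0% of probe sets passed 0.05 after adjustment and 5.03% before it. The same difference ranged from 0.93 without wild-type replicate 1, the array with the highest control, to 2.01 without wild-type replicate 3. Without that array, or without Ret-deficient replicate 1 (1.91), the groups did not overlap. A second probe set, 1425863_a_at, read 67.3, 17.3 and 8.8 in Ret-deficient kidneys, against 102.6, 75.9 and 71.1 in wild-type kidneys. Its groups did not overlap, in the opposite direction, where this held for 10.2% of all probe sets without controls, and every value lay below the gauge. They overlapped after median centring or quantile normalization.

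The DNA just before the annotated start was set out for the genes at or near background and for a gene well above it. RefSeq windows on build GRCm38.p6 were at hand for 5 of the 7 genes, Nphs1, Ptpro, Actn4, Kirrel and Cd2ap. The 250 bases before the start are shown 5′ to 3′ on the strand of the gene for Nphs1 (chr7:30459808-30460057, plus strand), Ptpro (chr6:137252049-137252298, plus strand) and Actn4 (chr7:28962333-28962582, minus strand). Capitals mark each CG, the dinucleotide that is dense in the promoters of broadly active genes.
Nphs1: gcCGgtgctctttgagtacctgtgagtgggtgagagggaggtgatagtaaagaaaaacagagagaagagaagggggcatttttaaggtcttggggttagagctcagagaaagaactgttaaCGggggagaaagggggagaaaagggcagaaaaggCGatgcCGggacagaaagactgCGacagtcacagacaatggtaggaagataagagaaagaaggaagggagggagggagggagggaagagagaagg
Ptpro: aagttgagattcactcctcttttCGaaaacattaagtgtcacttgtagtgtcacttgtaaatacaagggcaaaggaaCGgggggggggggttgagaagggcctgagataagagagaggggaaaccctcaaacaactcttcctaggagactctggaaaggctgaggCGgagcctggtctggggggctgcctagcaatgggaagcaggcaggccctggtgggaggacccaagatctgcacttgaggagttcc
Actn4: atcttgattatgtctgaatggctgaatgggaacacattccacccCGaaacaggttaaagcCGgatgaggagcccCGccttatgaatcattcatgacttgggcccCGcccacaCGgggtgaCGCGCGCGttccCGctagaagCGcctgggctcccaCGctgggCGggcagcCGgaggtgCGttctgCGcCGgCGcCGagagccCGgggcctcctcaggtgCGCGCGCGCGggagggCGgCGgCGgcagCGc

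The Nphs1 window held 5 CG and the Ptpro window 3, while the Actn4, Kirrel and Cd2ap windows held 29, 24 and 31. Over all 32851 windows of the same length the median was 6, 92.1% held at least 1 CG, and 12.0% held 24 or more. The share of all windows with no more CG than the gene in question was 49.6% for Nphs1, 37.8% for Ptpro, 94.1% for Actn4, 89.3% for Kirrel and 95.4% for Cd2ap. The windows of the 2 genes that stayed at or near the gauge were thus of ordinary CG content, and those of the 3 others among the CG-rich ones. The motif GCGGGGGCG, searched on both strands as a sequence of the kind bound by zinc finger factors of the EGR and Wt1 type, was in none of the 5 windows and in 2.57% of all windows. The motif itself contains CG, so its presence is not independent of the CG counts. These counts describe the windows only.

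Between the groups no podocyte gene passed the test. Of the 7 tested probe sets, 3 had a positive and 4 a negative log2 difference, and the median was -0.07, beside 0.00 over all tested genes. With each array centred on its median the split was 4 and 3, in a scaling that shifts the median of all log2 differences by 0.11 and gives 8018 of 11581 genes a positive sign. None had adjusted p below 0.05, and 0 of 22519 tested probe sets did, a background of 0%. At an unadjusted p under 0.05 there were 0 of 7 member probe sets, where 5.37% of all tested probe sets had such a p. The groups did not overlap at 1 of the 7, Actn4, where this held for 10.7% of all tested probe sets (5.17% with the Ret-deficient group on top and 5.54% with it below). In RNA from whole kidneys, fewer cells of a type and less RNA per cell cannot be told apart.

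**Figure D2:**
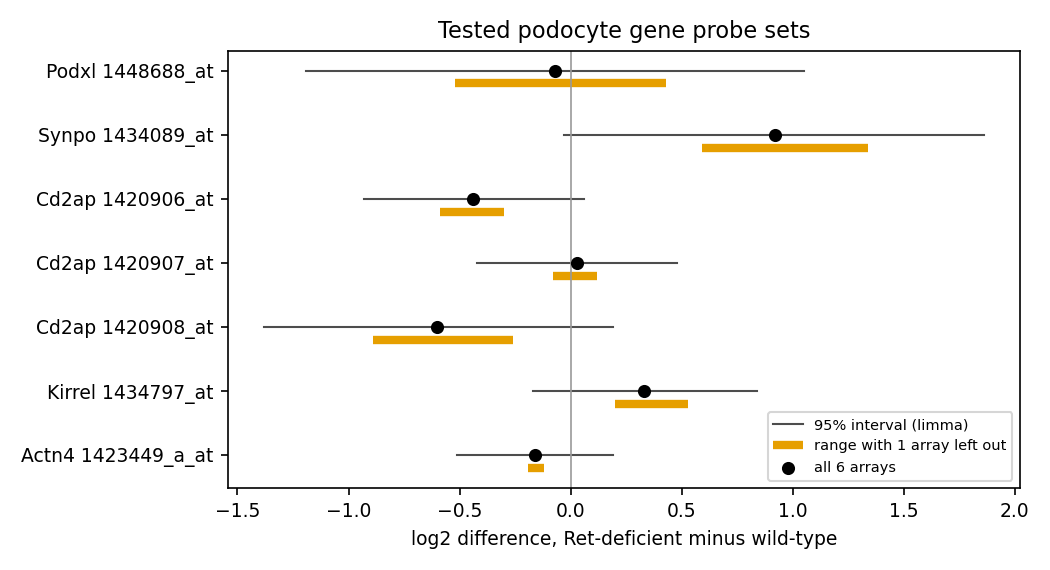
Log2 difference, Ret-deficient minus wild-type, of the 7 tested podocyte gene probe sets. Points are the limma estimates over all 6 arrays, thin lines their 95% intervals and thick bars the range with 1 array left out. Every 95% interval includes 0; Synpo has the largest estimate, 0.92, and Podxl the widest interval, from -1.19 to 1.05.

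Kirrel, the slit diaphragm partner of nephrin, was measured at 1434797_at. It read 4019, 4457 and 2802 in Ret-deficient kidneys, against 2814.5, 2861 and 3109.5 in wild-type kidneys. Ret-deficient replicates 1 and 2 lay above all wild-type values and replicate 3 just below all of them, so the groups overlapped. The means were 3759 ± 858 and 2928 ± 159 (SD, n = 3 each), and the log2 difference was 0.33 (SE 0.21, 95% interval -0.17 to 0.84, limma adjusted p = 0.938). A dim probe set, 1423015_at, read 13.3 to 48.0 in Ret-deficient and 16.2 to 77.4 in wild-type kidneys, below the gauge on all arrays.

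Cd2ap, the adaptor that links nephrin to actin, had 3 tested probe sets, and they did not give 1 answer. At 1420906_at the signal was 1440.5, 1467 and 1786.5 in Ret-deficient kidneys, against 1704, 2566 and 2156 in wild-type kidneys. Ret-deficient replicate 3 overlapped with wild-type replicate 1, and the log2 difference was -0.44 (SE 0.21, 95% interval -0.93 to 0.06, limma adjusted p = 0.928). At 1420907_at the signal was 7036, 7605 and 9264 in Ret-deficient kidneys, against 8715, 7953 and 6669.9 in wild-type kidneys. These values were interleaved, with a log2 difference of 0.03 (SE 0.19, 95% interval -0.42 to 0.48, limma adjusted p = 0.992). After median centring, at 0.15, the Ret-deficient values all lay above the wild-type ones. At 1420908_at the signal was 989, 1119 and 1364 in Ret-deficient kidneys, against 2784, 1644 and 1151 in wild-type kidneys. The log2 difference there was -0.60 (SE 0.33, limma adjusted p = 0.937), and with 1 array left out it ran from -0.89 without wild-type replicate 3 to -0.26 without wild-type replicate 1. Wild-type replicate 1 had the highest of the 6 values and the high 3 prime to 5 prime ratio. All 3 probe sets were designed from the same source sequence in the platform annotation.

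Synpo, which encodes synaptopodin, had the largest tested difference among the 7 genes. Its probe set 1434089_at read 7018, 2472.5 and 5108 in Ret-deficient kidneys, against 3064, 1935 and 2194 in wild-type kidneys. Ret-deficient replicates 1 and 3 lay above every wild-type array, and replicate 2 lay between wild-type replicates 3 and 1. The means were 4866 ± 2282 and 2398 ± 591 (SD, n = 3 each). The log2 difference was 0.92 (SE 0.40), or 1.89-fold after 16 units are added to each signal, with a 95% interval of -0.03 to 1.86. It did not pass the test (unadjusted p = 0.0553, limma adjusted p = 0.923), nor did an exact permutation over the arrays (two-sided p = 0.2). After median centring, at 1.03, the groups did not overlap. The estimate was 0.59 without Ret-deficient replicate 1, the array with the lowest summed ureteric epithelium signal, and 1.34 without Ret-deficient replicate 2. Synpo and Ptpro are also used by neurons, and 4 neuron and glia markers, all above the gauge on every array, summed to 5464, 2964 and 4439 in Ret-deficient kidneys, against 9651, 8168 and 8015 in wild-type kidneys. The glial factor gene Sox10 gave much of that sum, with 2268.5, 1100.4 and 1644 in Ret-deficient kidneys, against 6971, 3770.1 and 3362 in wild-type kidneys. All neuron markers of this list overlapped between the groups. The log2 difference was -1.06 for Tubb3, -0.70 for Elavl4 and 0.01 for Stmn2. Stmn2 had its highest value, 1292.5, in Ret-deficient replicate 1. The part of these cells in the Synpo and Ptpro values was not tested. A second Synpo probe set, 1427045_at, was below the gauge on all arrays, with 8.9 to 112.7 in Ret-deficient and 22.2 to 33.6 in wild-type kidneys.

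The genes whose pattern over the 6 arrays was most like that of Synpo were Naalad2, Cep120, Pak3, Kdelr3 and Spef1, with Pearson correlations of log2 signals of 0.980, 0.976, 0.975, 0.974 and 0.972. With 6 arrays and 11580 genes compared, 58 reached 0.9, so these names describe a shared rank of arrays and carry no test. Naalad2, the closest, read 861.0, 450.5 and 767.0 in Ret-deficient kidneys, against 484.1, 325.8 and 431.4 in wild-type kidneys. Like Synpo it was high in Ret-deficient replicates 1 and 3 and low in wild-type replicate 2. Foxd1, a stromal factor that is later also active in podocytes, was likewise highest in those 2 replicates, at 11833 and 18372, and read 7815 in Ret-deficient replicate 2, against 4633, 7292 and 7314.5 in wild-type kidneys.

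Actn4, which encodes the actin crosslinker alpha-actinin-4, had the smallest spread over arrays among the 7 tested probe sets. At 1423449_a_at it read 9049.9, 8662 and 8772 in Ret-deficient kidneys, against 10413, 9468 and 9747 in wild-type kidneys. Every Ret-deficient value lay below every wild-type value, by a small margin. The means were 8828 ± 200.1 and 9876 ± 485 (SD, n = 3 each), a log2 difference of -0.16 (SE 0.15, 95% interval -0.51 to 0.19, limma adjusted p = 0.953). By exact permutation the two-sided p was 0.1, the smallest it can be. After median centring the difference was -0.05 and the groups overlapped.

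Podxl, the sialomucin of the podocyte surface and of endothelium, varied more within the wild-type group than between the groups. At 1448688_at it read 5292, 5302 and 3516 in Ret-deficient kidneys, against 9741.5, 2591 and 4526 in wild-type kidneys. The 3 Ret-deficient values lay inside the wild-type range. The log2 difference was -0.07 (SE 0.47, 95% interval -1.19 to 1.05, limma adjusted p = 0.995), and 0.43 without wild-type replicate 1. A second probe set from the same source sequence, 1417396_at, read 2.7, 103.1 and 4.5 in Ret-deficient and 15.5, 4.6 and 10.0 in wild-type kidneys, below the gauge on all arrays.

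The array with the most Podxl also had the highest summed signal of endothelial and of coelomic markers, though not of each marker. All 10 endothelial markers were above the gauge on every array. Their summed signal was 41297, 37504 and 30094 in Ret-deficient kidneys, against 48335, 31507 and 40784 in wild-type kidneys, so wild-type replicate 1 was highest here too and wild-type replicate 2 and Ret-deficient replicate 3 were lowest. Tek gave much of the excess, with 14650.5 in wild-type replicate 1 against 8279.3 in Ret-deficient replicate 1. Kdr, Tie1, Egfl7 and Esam were also highest in wild-type replicate 1. Pecam1, Emcn, Plvap and Flt1 were highest on other arrays, and Cdh5, at 1380.1, was lowest in wild-type replicate 1. Of 6 coelomic epithelium and gonad markers, 2 were above the gauge on every array and Msln on none; Gata4 read 50.5, 393.9 and 68.0 in Ret-deficient kidneys, against 1389.6, 102.8 and 47.6 in wild-type kidneys. The part of these cells in the Podxl values was not tested.

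Leaving out 1 array changed how many of the 7 tested probe sets had groups without overlap, and it raised the share over all tested probe sets as well. Actn4, whose groups are apart on all 6 arrays, is counted in each case by construction. Without Ret-deficient replicate 1 or wild-type replicate 2 it was the only 1 of 7, beside 20.4% and 16.2% of all tested probe sets. Without Ret-deficient replicate 2 Synpo joined it as higher (2 of 7, beside 18.6%). Without Ret-deficient replicate 3 Kirrel joined as higher and Cd2ap 1420906_at and 1420908_at as lower (4 of 7, beside 28.6%). Without wild-type replicate 1 Synpo joined as higher and Cd2ap 1420906_at as lower (3 of 7, beside 21.5%), and without wild-type replicate 3 Cd2ap 1420908_at as lower (2 of 7, beside 19.9%).

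**Figure D3:**
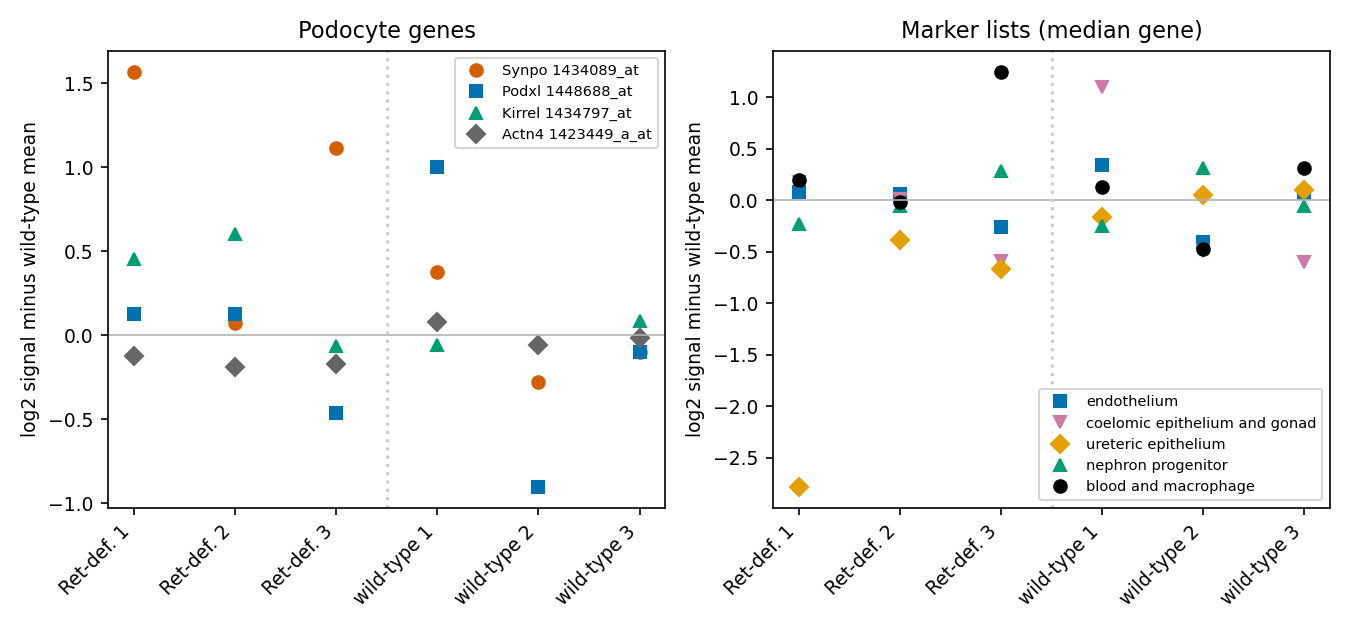
Log2 signal minus the mean of the wild-type arrays, on each array, for 4 podocyte genes (left) and for the median gene of 5 marker lists (right). Synpo is highest in Ret-deficient replicates 1 and 3, and Podxl in wild-type replicate 1, where the coelomic and gonad list also stands highest at 1.10. The ureteric epithelium list stands at -2.78 in Ret-deficient replicate 1.

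Relatives of the 7 genes were read beside them, since a shift within a family would change which member dominates. Of 9 tested relatives none passed the test, 6 had a positive and 3 a negative log2 difference, and the median was 0.02. The split was the same after median centring, where 8018 of 11581 tested genes were positive. Groups without overlap were found at 3 of the 9 (33.3%), 2 higher and 1 lower, where this held for 11.8% of all tested genes. Kirrel3, the family member named Neph2, read 1143, 1157 and 1110.0 in Ret-deficient kidneys, against 756.2, 793.0 and 704.9 in wild-type kidneys, which did not overlap (log2 difference 0.59, SE 0.15, limma adjusted p = 0.867). The alpha-actinin genes had differences of either sign. Actn1, the other non-muscle form, read 17051, 15753 and 17167 in Ret-deficient kidneys, against 21311, 18185 and 17788 in wild-type kidneys, a log2 difference of -0.19 that was -0.08 with overlapping groups after median centring. Actn3, the fast muscle form, read 7816, 7452 and 11019 in Ret-deficient kidneys, against 2253, 4626 and 4484 in wild-type kidneys (log2 difference 1.26, SE 0.32, limma adjusted p = 0.867), without overlap under either scaling. Actn2, below the brightness filter and named after its values were seen, read 150.8, 124.8 and 112.1 in Ret-deficient kidneys, against 364.1, 304.2 and 191.2 in wild-type kidneys. Its groups did not overlap, as at 10.2% of all probe sets without controls. In the limma fit without the filter its log2 difference was -1.02 (SE 0.30, limma adjusted p = 0.928). Podxl2, a sialomucin of the same family as Podxl, had 0.31 with overlapping groups.

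Other genes that podocytes use were taken from lists on the slit diaphragm, the actin cytoskeleton, the glomerular basement membrane, transcription factors and further products. Of 59 such genes 53 had a probe set with a single symbol and 47 were tested. None passed the test, 26 had a positive and 21 a negative log2 difference, and the median was 0.02, beside 0.00 over all 11581 tested genes. After median centring 32 were positive and 15 negative, beside 8018 and 3563 of all tested genes. At an unadjusted p under 0.05 there were 8 of the 47 (17.0%), 5 higher and 3 lower, where 5.55% of all tested genes had such a p, 3.03% higher and 2.52% lower. Groups without overlap were found at 7 of the 47 (14.9%), 5 higher and 2 lower, where this held for 11.8% of all tested genes, 6.02% higher and 5.73% lower. After median centring 4 of those 7 did not overlap, and Arhgap24, Anln and Agrn joined them, which makes 7 of 47 again. The share of all tested genes without overlap under that scaling is not given here, so this count has no background beside it. Arhgap24 and Agrn are named after their values were seen.

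**Figure D4:**
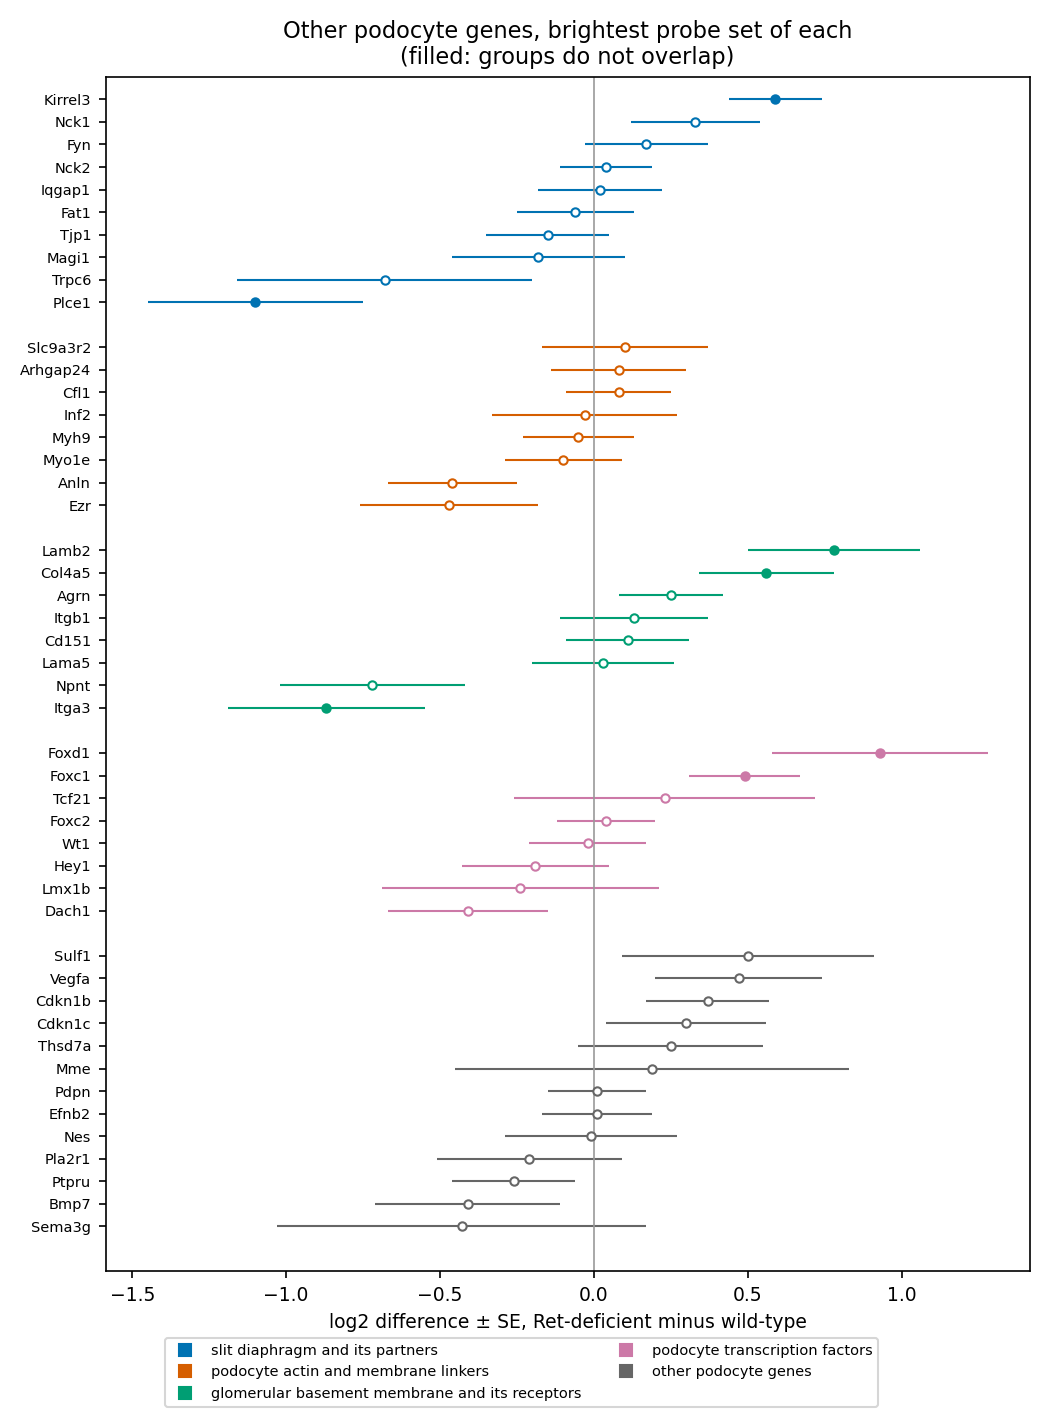
Log2 difference ± SE, Ret-deficient minus wild-type, for the brightest probe set of each of the 47 tested podocyte genes in the 5 lists, with filled points where the groups do not overlap. The filled points are Kirrel3, Plce1, Lamb2, Col4a5, Itga3, Foxd1 and Foxc1; the estimates run from -1.10 for Plce1 to 0.93 for Foxd1.

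The slit diaphragm list was evenly split, with 5 positive and 5 negative of 10 tested, or 6 and 4 after median centring. Plce1, the phospholipase C epsilon gene that is mutated in early human nephrotic syndrome, read 2307, 865 and 1182 in Ret-deficient kidneys, against 2926, 2713 and 2991 in wild-type kidneys. Its groups did not overlap (log2 difference -1.10, SE 0.35, limma adjusted p = 0.867), though they did after median centring (-0.99). The calcium channel gene Trpc6 had -0.68 (SE 0.48) and the nephrin adaptor gene Nck1 0.33, both with overlap. Ddn, which encodes the podocyte protein dendrin, read at most 82.2 and was below the gauge on all 6 arrays, as nephrin was.

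Among the actin and membrane linkers 3 of 8 had a positive difference and the groups of all 8 overlapped. After median centring 6 of 8 were positive and 2 had groups without overlap, Anln as lower (-0.34) and Arhgap24 as higher (0.20), again without a share over all genes for that scaling. Ezr, which encodes ezrin, the linker of podocalyxin to actin, had a log2 difference of -0.47 (SE 0.29) and the actin-binding protein gene Anln -0.46 (SE 0.21). Myo1e, a class I myosin of foot processes, had -0.10, or 0.01 after median centring, and the actin-severing cofilin gene Cfl1 0.08.

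In the basement membrane list 6 of 8 had a positive difference under either scaling, where 8018 of 11581 tested genes were positive after median centring. Groups without overlap were found at 3 of the 8 (37.5%), 2 higher and 1 lower, where this held for 11.8% of all tested genes. Lamb2, the laminin beta-2 chain of the mature glomerular basement membrane, read 3737, 2249 and 1854 in Ret-deficient kidneys, against 1457, 1655 and 1253 in wild-type kidneys, without overlap (log2 difference 0.78, SE 0.28, limma adjusted p = 0.914). The collagen IV gene Col4a5 had 0.56 (SE 0.22), also without overlap, and 0.40 at its other tested probe set. Itga3, the integrin alpha-3 that holds podocytes to this membrane, read 1641, 1569.9 and 1044 in Ret-deficient kidneys, against 3861, 1800.4 and 2375 in wild-type kidneys (log2 difference -0.87, SE 0.32, limma adjusted p = 0.918), but -0.03 at a second probe set. Its groups did not overlap, though they did after median centring (-0.75). Npnt, an integrin ligand of the matrix, had -0.72 with overlap.

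Transcription factors of podocytes were above background at this stage, at which the only Nphs1 probe set was not. Of the 8 tested, 4 had a positive and 4 a negative difference, or 5 and 3 after median centring. All 8 with a probe set were above the gauge on all 6 arrays at their brightest probe set. Over all probe sets without controls 51.3% were, but that share does not take the brightest probe set of each gene. The share over genes counted that way is not given here, so this count has no like background. Wt1, a factor of the nephron progenitor and later of the podocyte, read 13788, 14799.9 and 18592 in Ret-deficient kidneys, against 16414, 17261 and 13977 in wild-type kidneys, fully interleaved (log2 difference -0.02, SE 0.19, and 0.09 after median centring). Foxc2 read 27874, 31655 and 27807 in Ret-deficient kidneys, against 31362, 26764 and 27063 in wild-type kidneys. These 2 were chosen after their values were seen. Foxc1 read 26071, 23270.1 and 19996.5 in Ret-deficient kidneys, against 14548.5, 17227 and 17637 in wild-type kidneys, without overlap (log2 difference 0.49, SE 0.18, limma adjusted p = 0.914, and 0.43 at a second probe set). Its groups overlapped after median centring. Foxd1, given above, had 0.93 (SE 0.35). Dach1 had -0.41 and Hey1 -0.19.

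Of 13 further podocyte genes that were tested 8 had a positive difference, or 9 after median centring, and the groups of all 13 overlapped. Enpep, below the brightness filter and named after its values were seen, read 181.2, 263.0 and 452.6 in Ret-deficient kidneys. In wild-type kidneys it read 18.2, 143.0 and 89.8, without overlap, as at 10.2% of all probe sets without controls. Its log2 difference in the limma fit without the filter was 1.83 (SE 0.64, limma adjusted p = 0.97). The endothelial growth factor gene Vegfa had a log2 difference of 0.47 and the cell cycle inhibitor gene Cdkn1b 0.37, but -0.07 at its other tested probe set. Bmp7 had -0.41 and the phosphatase gene Ptpru -0.26.

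The early nephron, from which podocytes descend, was read through its own markers. All 7 tested markers of the induced nephron had differences below 0 under either scaling; their median was -0.40 and none passed the test. Lhx1, a factor of the renal vesicle, read 5.0, 1112.7 and 1242.0 in Ret-deficient kidneys, against 2246.5, 3142 and 2797 in wild-type kidneys, the first of these values being below the gauge. That value is from Ret-deficient replicate 1, the array with the lowest summed ureteric epithelium signal, and the part of ureteric cells in Lhx1 was not tested. Wnt4 of the same list read 897.9 on that array, and its groups overlapped. On the log2 scale the median marker lay at -0.65, -0.28 and -0.13 from the wild-type mean on the 3 Ret-deficient arrays, and at 0.08, 0.10 and -0.10 on the wild-type arrays. Of 8 nephron progenitor markers 4 had a positive and 4 a negative difference, or 5 and 3 after median centring. The part of these shifts in the podocyte gene values was not tested. Among 6 markers of mature tubules 1, Lrp2, was above the gauge on all 6 arrays and none reached the brightness filter.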

How the data were processed

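One Affymetrix 430 2.0 array per sample was used. The deposited intensity values are MAS5 signals, per the submitters' processing notes, and neither their version nor scaling target is named there; detection calls were not used here. Per the study's design text RNA was amplified before hybridization. Values were used as log2(value + 16), with no further normalization. Without the 64 controls, the 22519 probe sets at or above the median of mean log2 values (8.19) were tested in R 4.3.3 with limma 3.58.1 (lmFit, eBayes), adjusted by Benjamini-Hochberg over all of them. Dimmer probe sets are given as values or from a fit without the filter. A fold change on this scale understates that of dim probe sets. A listed gene stands for its probe set with the highest mean log2 value.

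Symbols came from the platform annotation, updated by gene ID with RefSeq names (34958 probe sets had 1 symbol, 932 several and 9211 none). Listed genes without a probe set of a single symbol are not analysed here. Members, lists and alternatives were chosen with earlier results of these data known. Named were all member probe sets, Ret, of each podocyte list at most 4 genes with the smallest p, genes below the gauge on all 6 arrays, and the 5 genes most like the most variable member; others are said to be chosen later or come from marker lists. Labels call the samples biological replicates. Alternatives are given under the dependence on processing. The limma test was tested on simulated data. No 2 arrays were identical (highest correlation 0.9694).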

Additional observations from a re-analysis of the deposited data

How the results depend on the processing

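No member probe set passed an adjusted p of 0.05 under any alternative run. Signs changed at Podxl 1448688_at (0.04 with median centring, 0.61 with array quality weights, -0.52 to 0.43 with 1 array left out) and at Cd2ap 1420907_at (-0.33 with the mean of the gene's probe sets, -0.08 to 0.12 with 1 array left out). They also changed at 2 probe sets below background on all arrays, Podxl 1417396_at (-0.39 without Ret-deficient replicate 2, against 0.48) and Synpo 1427045_at (-0.10 without Ret-deficient replicate 1, against 0.46). Synpo 1434089_at ranged from 0.59 to 1.34 and its adjusted p from 0.386 to 0.998. The count of tested probe sets past the threshold was 0, but 1, Ret, with median centring, 1, Ret, with an intensity trend and 0 to 1 with 1 array left out (Ret, without Ret-deficient replicate 1). The count with an unadjusted p under 0.05 was 1209, and 2265 without the brightness filter, 723 in the top 30 percent, 2533 with array quality weights and 838 to 2140 with 1 array left out, the last without Ret-deficient replicate 3. Fewer or more probe sets tested account for the first pair; the cause of the others was not tested. Member probe sets whose groups do not overlap numbered 1, but 2 with quantile normalization, 2 with median centring, 2 without the filter and 1 to 4 with 1 array left out, when 16.2% to 28.6% of all tested probe sets do not overlap. Without the filter 10.2% of all probe sets without controls do not overlap. The share over all probe sets under quantile normalization or median centring is not given here. Without the replicate block the Synpo limma adjusted p was 0.923 and with it 0.957, and the block changed no call. Deviations of same-numbered samples from their group means correlated at 0.03, -0.04 and -0.12, and those of other pairs at -0.19 to 0.21. These values cannot show whether same-numbered samples shared a litter, which the labels do not give. The 7 member probe sets above background on all arrays stayed 7 with each other background gauge and, in an alternative chosen after seeing the data, without Ret-deficient or wild-type replicate 1.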
